A study of Mus musculus with 18 samples.

Results

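Srebf1, which encodes the transcription factors SREBP-1a and SREBP-1c, and 9 genes of fatty acid synthesis were followed in livers of riboflavin-deficient mice with and without fenofibrate. The 10 genes (Srebf1, Fasn, Acaca, Acacb, Acly, Scd1, Elovl6, Me1, Thrsp and Pnpla3) were chosen by name out of the 54532 genes listed, with earlier results of the same libraries known. The values that chose them were their levels and fold changes in these groups, so those are given below as a description. Counts of these genes past a threshold are given beside the share of all genes past it, and nothing is read from them. All mice were male C57BL/6J, started their diet at 4 wk of age and were fasted overnight before the liver was taken, with 1 library per mouse. The 5 Ctrl mice ate the control diet and the 5 B2D mice a diet with 99% of its riboflavin (vitamin B2) removed, for 1 month. The 4 Ctrl+FF and 4 B2D+FF mice ate the same diets for 9 wk and received fenofibrate, an activator of the fatty acid sensor PPARα, by daily gavage at 300 mg per kg in the last weeks, with the final dose 2 hours before harvest. Mice without fenofibrate therefore differed from mice with it in diet time, gavage and table as well, and these cannot be told apart. Within each fenofibrate pair the drug was shared by both diets, so no group shows the drug's effect alone.

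The liver makes fatty acids from citrate that leaves the mitochondrion. ATP citrate lyase (Acly) splits it into acetyl-CoA, the carboxylases (Acaca and Acacb) make malonyl-CoA, and fatty acid synthase (Fasn) builds palmitate with NADPH that malic enzyme (Me1) helps to supply. Elovl6 then lengthens palmitate and Scd1 places the first double bond. Insulin and liver X receptors raise SREBP-1c, the main SREBP-1 form of liver, and SREBP-1c activates these genes together with the glucose-sensing factor ChREBP (Mlxipl). Fasting normally lowers the pathway, and every liver here came from a fasted mouse.

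Srebf1 lies on the minus strand of chromosome 11 (60199089 to 60222581, GRCm38). Away from Srebf1, Fasn and Acly, the others are Acaca (chromosome 11, 84129672 to 84401651), Acacb (chromosome 5, 114146535 to 114250761), Scd1 (chromosome 19, 44394451 to 44407709), Elovl6 (chromosome 3, 129532355 to 129638495), Me1 (chromosome 9, 86581371 to 86695953), Thrsp (chromosome 7, 97412938 to 97417730) and Pnpla3 (chromosome 15, 84167837 to 84187236). The RefSeq promoter table for GRCm38.p6 matched 9 of the 10 genes and gave Srebf1 3 starts, which the gene-level values add together, so SREBP-1a and SREBP-1c cannot be told apart here. The first window below ends at the outermost start of the gene, and starts 2 and 3 lie in introns of Srebf1. They are shown because Srebf1 carries the largest difference relative to its error. Fasn stands for a gene that lay lower in B2D+FF without passing the threshold, and Acly for a gene that hardly differed. Scd1, which passed it with Srebf1, is the gene that the promoter table did not match. Each is the 250 bases before the start, on the gene's strand, with capitals marking CCAAT boxes (CCAAT) and GC boxes (GGGCGG) on either strand. Fasn lies on chromosome 11 from 120805846 to 120824547 and Acly on chromosome 11 from 100476353 to 100528000, both on the minus strand, and both windows lie outside annotated genes.
Srebf1 start 1, chr11:60222582-60222831, minus strand: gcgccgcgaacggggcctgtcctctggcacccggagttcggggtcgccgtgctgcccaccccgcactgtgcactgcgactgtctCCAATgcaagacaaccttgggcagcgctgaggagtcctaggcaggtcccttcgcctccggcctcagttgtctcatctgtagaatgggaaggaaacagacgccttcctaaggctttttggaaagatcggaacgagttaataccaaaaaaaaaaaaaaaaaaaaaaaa
Srebf1 start 2, chr11:60220628-60220877, minus strand: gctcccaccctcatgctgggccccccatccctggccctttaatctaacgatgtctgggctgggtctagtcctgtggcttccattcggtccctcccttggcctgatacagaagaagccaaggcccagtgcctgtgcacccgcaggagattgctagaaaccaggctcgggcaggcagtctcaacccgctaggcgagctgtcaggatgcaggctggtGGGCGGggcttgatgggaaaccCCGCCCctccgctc
Srebf1 start 3, chr11:60210472-60210721, minus strand: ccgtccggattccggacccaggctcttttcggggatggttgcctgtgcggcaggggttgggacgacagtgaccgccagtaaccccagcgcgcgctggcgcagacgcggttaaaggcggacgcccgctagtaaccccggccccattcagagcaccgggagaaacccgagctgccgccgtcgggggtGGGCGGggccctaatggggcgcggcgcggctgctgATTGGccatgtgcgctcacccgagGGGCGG
Fasn, chr11:120824548-120824797, minus strand: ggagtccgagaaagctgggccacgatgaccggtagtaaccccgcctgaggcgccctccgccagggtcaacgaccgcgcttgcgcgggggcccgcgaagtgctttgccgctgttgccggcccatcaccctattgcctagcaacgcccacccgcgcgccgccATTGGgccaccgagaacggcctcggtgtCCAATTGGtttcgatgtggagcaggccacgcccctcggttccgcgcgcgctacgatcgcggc
Acly, chr11:100528001-100528250, minus strand: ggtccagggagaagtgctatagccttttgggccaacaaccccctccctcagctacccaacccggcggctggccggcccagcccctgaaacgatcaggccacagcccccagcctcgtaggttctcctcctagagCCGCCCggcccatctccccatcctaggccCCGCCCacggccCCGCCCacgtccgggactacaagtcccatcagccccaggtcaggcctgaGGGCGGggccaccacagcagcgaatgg

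No exact match to the sterol element TCACNCCAC or the E-box CACGTG was found in any of the 12 windows of the 9 genes. Among all 32851 windows of the table, 1.05% held the first and 6.02% the second, so finding none in 12 windows says little. Variants of these letters were not searched, so the windows are not shown to lack such elements. CCAAT was found in 7 of the 12 windows, against 33.8% of all windows, and GGGCGG in 5, against 32.7%. Srebf1 gave 3 of these windows and Me1 2. The only windows of Acaca (chr11:84195188-84195437) and Acacb (chr5:114165268-114165517) lie well inside those genes, as does start 2 of Me1. The Fasn window held 3 CCAAT boxes, at 90, 62 and 59 bases before the start, of which the last pair overlap on opposite strands. The Acly window held no CCAAT box and 4 GC boxes, at 117, 88, 76 and 27 bases. Start 3 of Srebf1 had a CCAAT box at 30 bases and GC boxes at 65 and 6. These matches are letters in a short window and say nothing of binding in these livers.

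Between 15320729 and 21898502 reads were counted per library. The reads behind each FPKM value (fragments per kilobase, adjusted by the authors for library size) were recovered from its steps, with 100% of values whole in every library. The hepatocyte markers Alb, Ttr, Apoa1, Cps1 and Hnf4a together stood between 18016 and 44963 FPKM, far above the markers of other liver cells. One B2D library, B2D 2, stood apart in adipocyte markers. The sum of Adipoq, Lep, Plin1, Retn and Cfd was 37.1 FPKM there and between 0.146 and 0.784 in Ctrl. Its Adipoq, the fat-cell hormone adiponectin, was 6.19 FPKM (146 reads), and the other 4 B2D libraries held between 2 and 10 reads. Ctrl+FF 1 held 56 Adipoq reads (2.47 FPKM), and the other 7 fenofibrate libraries at most 3. Results that rest on these libraries are given with and without them. Levels in bulk tissue cannot tell fewer cells of a type from less RNA per cell.

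**Figure D1:**
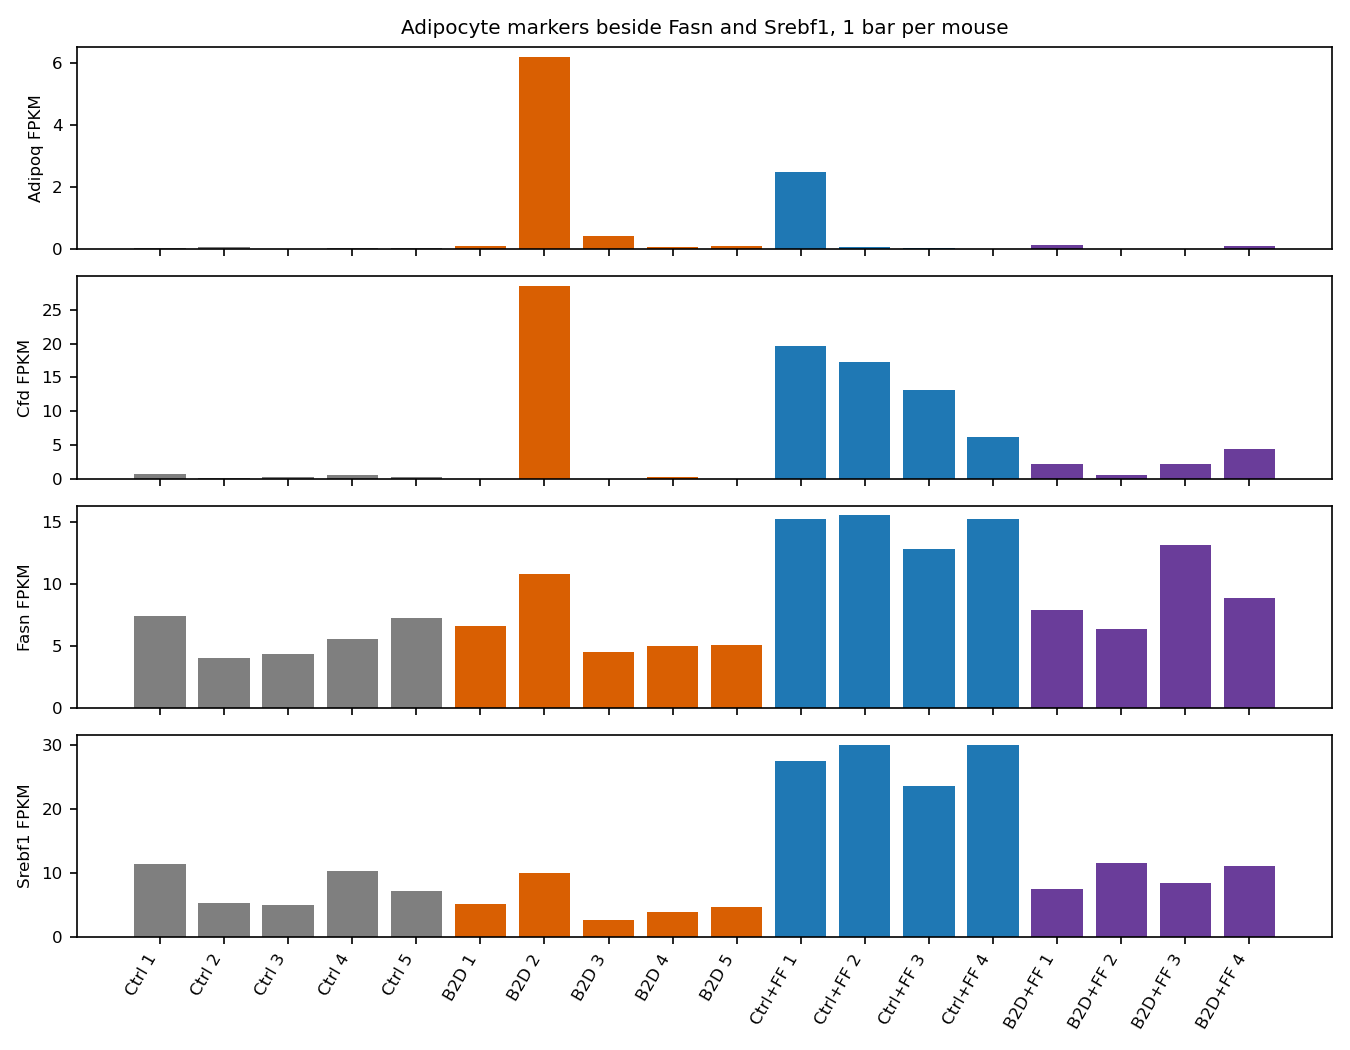
FPKM of Adipoq, Cfd, Fasn and Srebf1 in each of the 18 livers, 1 bar per mouse and 1 color per group. B2D 2 has the tallest Adipoq bar (6.19), and within B2D also the tallest Fasn (10.9) and Srebf1 (9.97) bars, while Cfd is raised in all 4 Ctrl+FF mice.

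Levels of the 10 genes spanned a wide range on the FPKM scale, which is per length and so allows genes to be compared. In Ctrl, Scd1 was the highest, at 658 ± 355 FPKM (SD, n = 5), followed by Me1 at 39.5 ± 11.3. Acly (14.3 ± 1.36), Thrsp (12.0 ± 1.12) and Elovl6 (10.3 ± 2.18) came next, and these neighbours lay within each other's spread except for Acly and Elovl6. Srebf1 (7.92 ± 2.88), Fasn (5.74 ± 1.59) and Acacb (5.27 ± 1.51) overlapped one another. Acaca, the cytosolic carboxylase, was at 2.38 ± 0.357, and Pnpla3, a lipid droplet hydrolase, was near 0 at 0.105 ± 0.0796. Pnpla3 rested on 0 to 18 reads per library, failed the minimum mean of 0.5 FPKM and was not tested, so 9 of the 10 genes entered the fits.

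**Figure D2:**
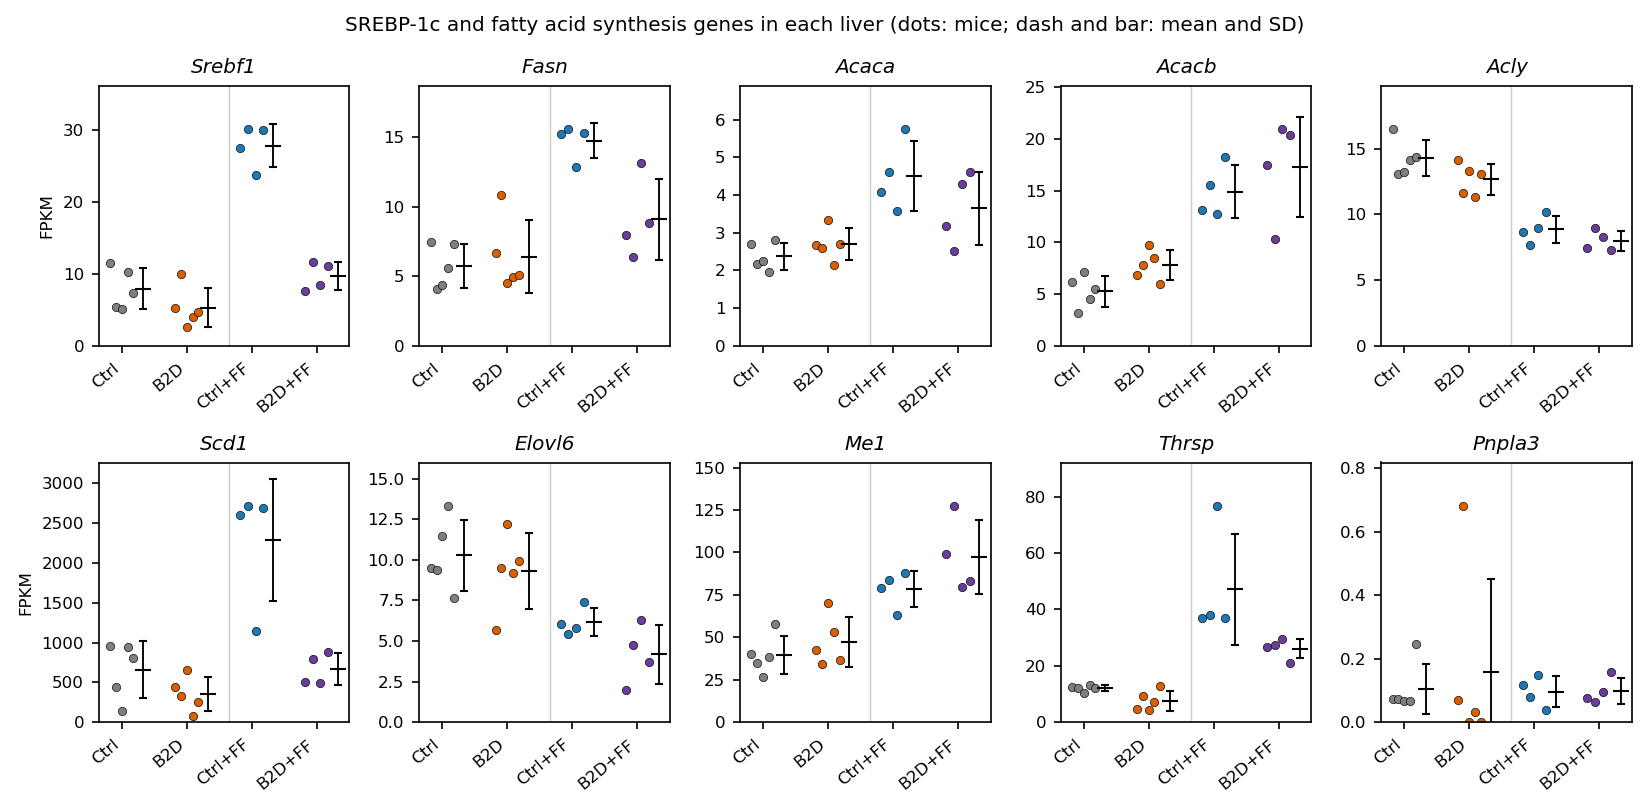
FPKM of the 10 genes in each mouse, 1 panel per gene with its own axis from 0, where dots are mice and the dash and bar give the group mean and SD. The 4 Ctrl+FF mice are between 23.7 and 30.1 for Srebf1 and the 4 B2D+FF mice between 7.61 and 11.6, while the Ctrl and B2D dots overlap in every panel. The line divides tables that were normalized separately.

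Without fenofibrate, none of the 9 genes tested passed the threshold between B2D and Ctrl (limma on log2(FPKM + 1), Benjamini-Hochberg adjusted over 11574 genes at 0.05), beside 2.7% of all genes. At an unadjusted p under 0.05 there were 2, Acacb and Thrsp, beside 18.4% of all genes. On the recovered reads voom, limma's model for counts, called 0, beside 264 lower and 139 higher of all 11574 genes. The diets overlapped for all 9, where 4.98% of all genes did not overlap.

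The regulator itself varied widely on both diets. Srebf1 was at 11.5, 5.41, 5.10, 10.3 and 7.29 FPKM in Ctrl and at 5.25, 9.97, 2.67, 3.99 and 4.67 in B2D. Of the B2D mice, 3 lay below every Ctrl mouse, and B2D 2 lay within the Ctrl range, under its 2 highest mice. The group mean in B2D was 67.0% of that in Ctrl, a log2 fold change of -0.54 ± 0.28 (SE). Without B2D 2 the fold change was -0.76, and B2D stood at 4.14 ± 1.11 (SD, n = 4). The part of the adipocyte RNA in B2D 2 in its Srebf1 level was not tested.

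Fasn, the synthase, was at 7.46, 4.07, 4.34, 5.56 and 7.29 FPKM in Ctrl and at 6.65, 10.9, 4.50, 4.97 and 5.11 in B2D. The B2D mice fell in the same order as for Srebf1, with B2D 2 the highest and B2D 3 the lowest, and those other than B2D 2 lay within the Ctrl range. The log2 fold change was 0.11 ± 0.22 (SE), and -0.07 without B2D 2.

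Scd1, the desaturase, had the widest spread. It was at 956, 441, 144, 943 and 808 FPKM in Ctrl and at 446, 333, 655, 80.7 and 254 in B2D, so that each diet held mice 6.62-fold and 8.12-fold apart. The mean in B2D was 53.8% of that in Ctrl, with a log2 fold change of -0.90 ± 0.60 (SE), and between -1.38 and -0.45 with single mice left out. Unlike Srebf1 and Fasn, it was not highest in B2D 2.

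Thrsp (Spot 14), a small protein that accompanies lipogenesis, was tight in Ctrl, at 12.7, 12.1, 10.2, 13.1 and 12.1 FPKM, and spread in B2D, at 4.81, 9.15, 4.22, 7.20 and 12.9. Of the B2D mice, 4 lay below every Ctrl mouse and B2D 5 lay within the Ctrl range. The log2 fold change was -0.68 ± 0.23 (SE), and without B2D 5 it was -0.88 and passed the threshold.

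The 2 carboxylases differ in place and role. Acacb is anchored at the mitochondrion, where its malonyl-CoA restrains fatty acid entry. It was at 6.12, 3.18, 7.11, 4.48 and 5.44 FPKM in Ctrl and at 6.81, 7.85, 9.73, 8.50 and 6.00 in B2D, with 3 B2D mice above every Ctrl mouse. Its log2 fold change was 0.51 ± 0.18 (SE), and that of Acaca, which feeds synthesis in the cytosol, was 0.13 ± 0.11.

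Acly (-0.16 ± 0.10), Elovl6 (-0.14 ± 0.18) and Me1 (0.25 ± 0.22) had log2 fold changes of small size beside their SE. Elovl6 came to 0.00 without B2D 1, its lowest mouse at 5.69 FPKM. In B2D 5 of the 9 genes lay lower and 4 higher. Their median log2 fold change was -0.14, beside -0.0013 for all genes tested.

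Under fenofibrate, 2 of the 9 genes, Srebf1 and Scd1, passed the threshold between B2D+FF and Ctrl+FF, both lower in B2D+FF. Of all 11878 genes tested, 2.21% were lower by the same rule. At an unadjusted p under 0.05 there were 5 of the 9, all lower, beside 21.2% of all genes in either direction. For Srebf1, Scd1 and Thrsp every B2D+FF mouse was below every Ctrl+FF mouse, as for 6.44% of all genes.

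Srebf1 was at 27.5, 30.1, 23.7 and 30.0 FPKM in Ctrl+FF and at 7.61, 11.6, 8.43 and 11.1 in B2D+FF. The highest B2D+FF mouse was thus well under the lowest Ctrl+FF mouse. The B2D+FF mean was 34.8% of the Ctrl+FF mean, with a log2 fold change of -1.44 ± 0.14 (SE). With single mice left out the log2 fold change was between -1.53 and -1.35.

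Scd1 was at 2605, 2717, 1142 and 2683 FPKM in Ctrl+FF and at 510, 790, 487 and 879 in B2D+FF. The groups did not overlap, and Ctrl+FF 3 lay far below the other 3 of its group. The B2D+FF mean was 29.1% of the Ctrl+FF mean, with a log2 fold change of -1.74 ± 0.31 (SE). Scd1 missed the threshold without B2D+FF 1 and without Ctrl+FF 1 or Ctrl+FF 2, although the fold change stayed between -2.05 and -1.61. The related genes stood far lower, with group means of at most 0.82 FPKM for Scd2, 0.225 for Scd3 and 0.0202 for Scd4. Sharing of reads between Scd genes in the authors' counting was not tested.

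Fasn and Thrsp were lower without passing the limma threshold. On the recovered reads voom called 4 of the 9 genes lower, these among them, beside 377 lower and 365 higher of all 11878 genes. Fasn was at 15.2, 15.6, 12.9 and 15.3 FPKM in Ctrl+FF and at 7.95, 6.37, 13.2 and 8.85 in B2D+FF. The mouse B2D+FF 3 lay just above the lowest Ctrl+FF mouse, and the other 3 were clearly lower. The log2 fold change was -0.68 ± 0.18 (SE), and -0.86 and past the threshold without B2D+FF 3. Thrsp was at 37.0, 37.9, 76.8 and 36.9 FPKM in Ctrl+FF and at 26.6, 27.4, 29.4 and 21.2 in B2D+FF. Its log2 fold change was -0.76 ± 0.23 (SE) and fell in size to -0.51 without Ctrl+FF 3, the mouse whose Scd1 and Fasn were the lowest of its group.

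Elovl6 was at 6.05, 5.45, 5.79 and 7.41 FPKM in Ctrl+FF and at 1.99, 4.74, 6.30 and 3.68 in B2D+FF, with a log2 fold change of -0.54 ± 0.24 (SE), and -0.30 ± 0.16 without B2D+FF 1, the lowest mouse. B2D+FF 3 lay inside the Ctrl+FF range, as it did for Fasn. Acaca (-0.25 ± 0.17) and Acly (-0.13 ± 0.10) were slightly lower, and Acacb (0.17 ± 0.21) and Me1 (0.29 ± 0.17) slightly higher, with overlapping groups in all 4. In B2D+FF 7 of the 9 genes lay lower and 2 higher. Their median log2 fold change was -0.54, beside 0.01 for all genes tested.

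**Figure D3:**
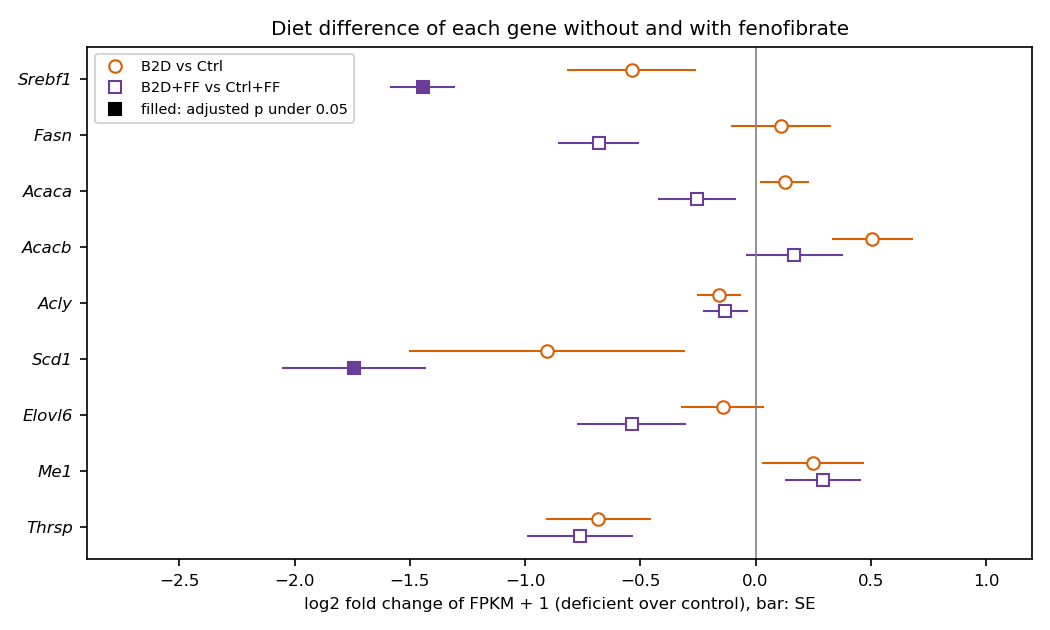
Log2 fold change of FPKM + 1 for the deficient over the control diet, with its SE, for the 9 genes tested, without (circles) and with fenofibrate (squares). Filled symbols passed an adjusted p of 0.05, which are the fenofibrate squares of Srebf1 (-1.44) and Scd1 (-1.74). Acly lies near 0 in both, and Acacb and Me1 lie to the right of 0 in both.

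Adipocyte markers differed between the fenofibrate groups as well. The same 5 markers summed to between 6.28 and 22.7 FPKM in the Ctrl+FF mice, whereas the B2D+FF sums lay between 0.628 and 4.52. Nearly all of it was Cfd, complement factor D, and without Cfd the sums were between 0.0747 and 3.18 and between 0.0417 and 0.341. Adipoq was at 0 in Ctrl+FF 4, B2D+FF 2 and B2D+FF 3. The endothelial markers Pecam1, Stab2 and Lyve1 summed to between 10.4 and 11.2 FPKM in Ctrl+FF, below the 12.7 to 20.5 of B2D+FF. Lyve1 carried this gap, at 4.78 to 6.04 FPKM in Ctrl+FF and 7.93 to 14.3 in B2D+FF. Pecam1 (means of 1.84 and 1.86) and Stab2 (3.62 and 3.57) hardly differed. The single hepatocyte markers went both ways. Alb, which encodes the hepatocyte product albumin, was at 14652 to 17148 FPKM in Ctrl+FF, above the 11460 to 13198 of B2D+FF. Ttr was also higher in Ctrl+FF, at 1684 to 1861 against 1234 to 1493. Hnf4a was lower in Ctrl+FF, at 104 to 142 against 145 to 167, and Apoa1 and Cps1 overlapped. The summed hepatocyte, cholangiocyte, Kupffer, stellate and red blood cell markers overlapped between these groups. Single Kupffer markers did not all overlap. Clec4f was at 20.5 to 33.7 FPKM in Ctrl+FF, above the 11.5 to 20.2 of B2D+FF. Cd68 was at 3.10 to 4.99 against 2.27 to 2.80. Adgre1 and Marco overlapped, with Marco reaching 24.6 FPKM in a B2D+FF mouse. The part of these markers in the Srebf1 and Scd1 differences was not tested. Without Ctrl+FF 1, the library with 56 Adipoq reads, Ctrl+FF stood at 28.0 ± 3.68 FPKM for Srebf1 (SD, n = 3), as large a difference from B2D+FF as with it.

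The difference of the diet effect with and without fenofibrate was tested in 1 fit of all 18 libraries, although the tables had been scaled separately. None of the 9 genes passed the threshold, beside 0.228% of all 11862 genes. At an unadjusted p under 0.05 there were 2, Srebf1 and Fasn, beside 11.9% of all genes. By voom there were 0, beside 6 lower and 7 higher of all 11862 genes. The log2 fold change under fenofibrate minus that without was -0.91 ± 0.36 (SE) for Srebf1, -0.79 ± 0.31 for Fasn and -0.84 ± 0.79 for Scd1. Without B2D 2 and Ctrl+FF 1 together, a choice made after seeing their adipocyte markers, it was -0.69 ± 0.32 for Srebf1 and -0.59 ± 0.28 for Fasn. The larger Srebf1 difference under fenofibrate is therefore not shown to differ from that without it. Thrsp (-0.08 ± 0.35) and Acly (0.03 ± 0.14) had nearly equal diet differences in both settings.

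The control levels stood at unlike heights in the separate tables, which also differ in diet time and gavage, so the ratios that follow are a description across separately scaled tables. The Ctrl+FF mean was 3.52 times the Ctrl mean for Srebf1, 3.47 times for Scd1, 3.92 times for Thrsp, 2.83 times for Acacb and 2.57 times for Fasn. Elovl6 (0.601 times) and Acly (0.621 times) stood lower in Ctrl+FF instead. In B2D+FF over B2D the ratio was 1.83 for Srebf1, 1.88 for Scd1 and 3.42 for Thrsp. The B2D+FF level of Srebf1, 9.69 ± 1.97 FPKM (SD, n = 4), lay within the range of the Ctrl mice without fenofibrate (5.10 to 11.5).

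Within a diet group the genes did not move as one block. The coefficient of variation of Srebf1 was 36.3% in Ctrl, 52.3% in B2D, 10.8% in Ctrl+FF and 20.4% in B2D+FF. Median values over all tested genes were 16.6%, 19.9%, 12.5% and 15.5%, and 6, 6, 6 and 7 of the 9 genes lay above them. Acly was between 9.37% and 11.8% in all 4 groups, although Thrsp was lower in Ctrl (9.31%) and Fasn (8.52%) and Srebf1 lower in Ctrl+FF. Ctrl 1 was the highest Ctrl mouse for 4 of the 9 genes and Ctrl 3 the lowest for 4. B2D 3 was the highest B2D mouse for 5 genes, Scd1 and Me1 among them, and the lowest for 3, Srebf1, Fasn and Thrsp. Ctrl+FF 3 was the lowest Ctrl+FF mouse for 6 genes and the highest for Thrsp.

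By the named-gene rule, the genes most like the mean of the 9, after centring on diet groups, were Mgll, Bambi, Bmf, Gsn and Zc3hav1 without fenofibrate. Pearson r was between 0.890 and 0.911 over 10 libraries, and these were the highest of 10273 protein-coding genes. Under fenofibrate they were Bsdc1, Tarsl2, Arl15, Kidins220 and Ipo8, with r between 0.979 and 0.994 over 8 libraries, the highest of 10200. With so many genes and so few libraries, the highest r is large by chance alone, and no p was computed. The mean was taken without scaling each gene, so the most variable genes weigh most in it. The points share libraries and scaling, and the lists have no gene in common.

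A list of 83 genes around the pathway was set beside the 10. It holds regulators, carbohydrate entry and NADPH supply, elongation and desaturation, triglyceride synthesis, and malonyl-CoA control. Without fenofibrate 79 of them were tested, and 1 was lower by the rule that called 1.94% of all genes lower. This was Elovl3, which extends saturated very long chains. It was at 77.2, 76.5, 44.9, 75.2 and 163 FPKM in Ctrl and at 42.7, 28.5, 36.4, 12.9 and 14.9 in B2D. No B2D mouse reached the lowest Ctrl mouse, and the log2 fold change was -1.67 ± 0.37 (SE, limma adjusted p = 0.0367). With 1 mouse left out it stayed past the threshold only without B2D 1, B2D 3 or Ctrl 3, with an adjusted p of up to 0.09 in the other 7 fits. The list's median log2 fold change was -0.01.

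Under fenofibrate 80 of the 83 were tested, of which 3 fell and 4 rose, beside 2.21% and 2.24% of all genes. Mlxipl, which encodes ChREBP, the other main activator of the pathway, was at 28.6, 31.7, 32.0 and 31.8 FPKM in Ctrl+FF and at 19.6, 16.7, 15.3 and 16.3 in B2D+FF. It fell in B2D+FF with a log2 fold change of -0.84 ± 0.09 (SE, limma adjusted p = 0.00269) and stayed past the threshold in all 8 fits with a mouse left out. Without fenofibrate Mlxipl differed by -0.04 ± 0.19 on the log2 scale (limma adjusted p = 0.925), and the difference between the diet effects was -0.79 ± 0.23 (adjusted p = 0.167). Like Srebf1, Mlxipl was thus clearly lower in B2D+FF than in Ctrl+FF, without a difference between the diet effects past the threshold.

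Triglyceride assembly genes went both ways under fenofibrate. Agpat2, which adds the second acyl chain to make phosphatidic acid, was at 139, 148, 137 and 137 FPKM in Ctrl+FF and at 75.3, 72.8, 66.9 and 91.4 in B2D+FF. It fell, with a log2 fold change of -0.87 ± 0.11 (SE, limma adjusted p = 0.00391), in all 8 fits with a mouse left out. Lpin1, the phosphatase that acts after it and also a PPARα coactivator, was at 3.30, 4.81, 6.24 and 11.9 FPKM in Ctrl+FF and at 18.9, 27.3, 26.7 and 15.2 in B2D+FF. It rose, with a log2 fold change of 1.69 ± 0.32 (SE, limma adjusted p = 0.0208), and missed the threshold without Ctrl+FF 1, Ctrl+FF 2 or Ctrl+FF 3 (adjusted p up to 0.0733). Acsl4, which activates arachidonate, rose by 0.61 ± 0.11 (adjusted p = 0.0166) from 16.5 ± 1.47 to 25.7 ± 3.07 FPKM (SD, n = 4 each) and missed the threshold without Ctrl+FF 2 or Ctrl+FF 3 (adjusted p up to 0.0651).

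The remaining calls were a lipase, a nuclear receptor and the elongase named above. Pnpla2, the lipase that opens stored triglyceride, rose from 101 ± 13.1 to 176 ± 29.9 FPKM (SD, n = 4 each), or by 0.78 ± 0.15 on the log2 scale (SE, limma adjusted p = 0.0203). Pparg, a lipogenic receptor of fat cells that is low in normal liver, rose from 1.43 ± 0.14 to 2.26 ± 0.303 FPKM, a log2 fold change of 0.42 ± 0.09 (adjusted p = 0.0312). Pparg stayed past the threshold only without B2D+FF 3 or Ctrl+FF 4 (adjusted p up to 0.0971 in the other fits), and Pnpla2 only without B2D+FF 2, B2D+FF 3 or Ctrl+FF 4 (up to 0.0726). Elovl3 fell again, from 183 ± 37.3 to 81.6 ± 29.8 FPKM, a log2 fold change of -1.21 ± 0.27 (adjusted p = 0.0421), and stayed past the threshold only without B2D+FF 2, B2D+FF 4 or Ctrl+FF 4 (up to 0.12). The median log2 fold change of the 80 genes was -0.0023. None of 79 passed the threshold for the difference between the settings, beside 0.228% of all genes. By voom there were 0, beside 6 lower and 7 higher of all 11862 genes. At an unadjusted p under 0.05 there were 9 of the 79, near the 11.9% of all genes.

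**Figure D4:**
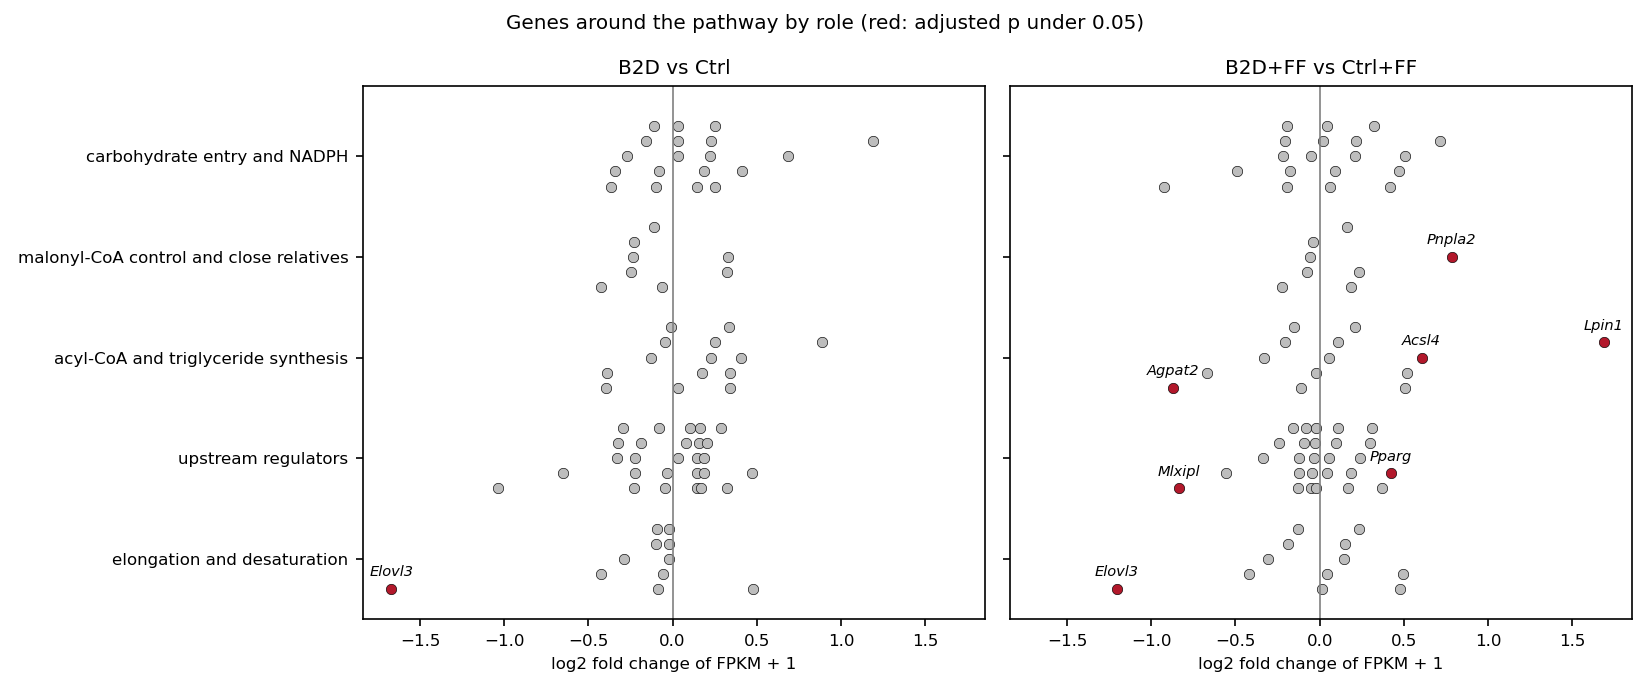
Log2 fold change of FPKM + 1 of the genes around the pathway, 1 dot per gene by role, for B2D against Ctrl (left) and B2D+FF against Ctrl+FF (right). Red dots passed an adjusted p of 0.05, with Elovl3 on the left, and on the right Mlxipl, Agpat2 and Elovl3 lower and Acsl4, Pnpla2, Lpin1 and Pparg higher.

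The cholesterol genes, driven by the related factor SREBP-2, were counted beside them. Without fenofibrate 20 of the 22 tested lay lower in B2D and their median was -0.33 on the log2 scale, where 5 of 9 fatty acid synthesis genes lay lower. One passed the threshold, Mvk (mevalonate kinase), at -0.59 ± 0.13 (SE, limma adjusted p = 0.0326), from 2.56 ± 0.501 to 1.36 ± 0.323 FPKM (SD, n = 5 each). It stayed past the threshold only without B2D 2 or Ctrl 3, with an adjusted p of up to 0.0939 in the other 8 fits. By voom 3 of the list were called, beside 264 lower and 139 higher of all 11574 genes. At an unadjusted p under 0.05, 6 of the 22 were lower and 1 higher, beside 18.4% of all genes in either direction. Under fenofibrate 11 of 22 were lower, with a median of -0.07, and none passed the limma threshold. By voom there were 0, beside 377 lower and 365 higher of all 11878 genes. At an unadjusted p under 0.05 there were 5 of 22, near the 21.2% of all genes. The lists were set side by side by count and median only, and the difference between them was not tested.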

How the data were processed

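Libraries of liver mRNA were sequenced as paired ends, and the authors aligned reads with STAR to mm10, counted them with featureCounts, tested them with DESeq2 and deposited 1 FPKM table per experiment, called RPKM in their methods. Tool versions are not given in the sources used here. Each table was scaled on its own. Multiplied by gene length, each value came out as a whole number of reads within 0.01 read, or within 1e-05 of the read count where that was larger. Groups came from the sample labels, and mice were numbered in each group in order of mouse number. No library column was left unused.

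Genes with a mean of at least 0.5 FPKM in a fit were tested on log2(FPKM + 1) by limma 3.58.1 in R 4.3.3 (moderated with a trend), each table alone, with Benjamini-Hochberg adjustment over all genes and a threshold of 0.05. A log2(FPKM + 1) fold change understates that of low genes. The members, lists and motifs were chosen with earlier results of these data known. Genes named were the 10, up to 20 pathway and 3 cholesterol genes per comparison past the threshold with the smallest adjusted p, and the 5 most alike per table. The fits were repeated with a pseudocount of 0.1, without the filter, with a mean of at least 5 FPKM, with upper-quartile rescaling, quantile normalization, voom on recovered reads or array weights, at unadjusted p-values and without each library. The fits were tested on simulated data. Python 3.11.15 was used for summaries. Depth limits genes with few reads, 3 reads being taken as the floor. Protein sequences were not analysed here.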

Additional observations from a re-analysis of the deposited data

Results flagged for a closer look

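Of the 40 sets of values (10 genes in 4 groups), 5 held a mouse far from the rest of its group. The rule flags about 1 in 20 sets of independent, normally distributed values. These sets share mice, and those of Pnpla3 rest on few reads, so the 5 are not read against that rate. In Ctrl+FF, mouse 3 was the outlying one for 3 genes. For Scd1 it was at 1142 FPKM, with the others between 2605 and 2717, a gap of 0.929 of the group's whole range. For Fasn it was at 12.9 FPKM, with the others between 15.2 and 15.6, a gap of 0.877. For Thrsp it was the high one, at 76.8 FPKM, with the others between 36.9 and 37.9, a gap of 0.973. Pnpla3 was at 0.681 FPKM (18 reads) in B2D 2, which also held the adipocyte markers, with the others at most 0.0702, a gap of 0.897. In Ctrl 5 it was at 0.247 FPKM (8 reads), with the others at most 0.0743, a gap of 0.949.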

How the results depend on the processing

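Of the 519 refitted log2 fold changes of the 9 genes, all moved by less than 1 SD between mice. Many of these fits left out 1 mouse, which can hardly move a group mean that far. The limit was thus nearly sure to be met and is no measure of stability. Scd1 without fenofibrate, for example, moved from -0.90 to -0.45 without B2D 4. The differences between the diet effects of Acly, Me1 and Thrsp, all smaller than their SE, changed sign in some settings, as did the Fasn and Elovl6 fold changes without fenofibrate when 1 mouse was left out. Scaling to upper quartiles and quantile normalization left the number of these genes called as it was. The calls among the 9 genes under fenofibrate came to 1 with no filter, 4 with voom (Fasn and Thrsp added) and 5 at unadjusted p, and without single libraries to between 1 and 3. Without fenofibrate they came to 2 at unadjusted p and to between 0 and 1 without single libraries, and for the difference of the diet effects to 2 at unadjusted p. The calls among the genes around the pathway without fenofibrate, 1 as reported, came to 2 with array weights, with a mean of 5 FPKM or with voom, to 0 with no filter, to 20 at unadjusted p, and to between 0 and 2 without single libraries. Under fenofibrate, 7 as reported, they came to 11 with array weights or voom, 3 with no filter and 22 at unadjusted p, and to between 2 and 10 without single libraries. For the difference they came to 9 at unadjusted p. Of all genes, 18.4% without fenofibrate, 21.2% with it and 11.9% for the difference had an unadjusted p under 0.05. The cause of these moves was not tested. Across all genes voom called 264 lower and 139 higher of 11574 without fenofibrate, and 377 lower and 365 higher of 11878 with it. For the difference voom called 6 lower and 7 higher of 11862. Array weights called 308 lower and 151 higher of 11574 without fenofibrate, and 405 lower and 480 higher of 11878 with it. With a mean of 5 FPKM, the fit without fenofibrate called 206 lower and 61 higher of 4872 genes. With no filter it called 49 lower and 18 higher of 25041, and without single libraries between 72 and 235 lower and between 26 and 97 higher. With no filter, the fit under fenofibrate called 135 lower and 137 higher of 24746 genes. Without single libraries the fit under fenofibrate called between 93 and 297 lower and between 76 and 299 higher. No paired analysis was possible because the labels give the groups no shared replicate numbers.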
